A study of Macaca mulatta with 20 samples.

Results

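MRAP, CYP3A4, PBX3, TLCD4, ATXN7 and NANOS1 are 6 genes of the rhesus macaque corpus luteum with much less mRNA at the last sampled stage than before it. They were picked for a large fall there, so they were chosen by their very-late values, which are given as a description with no test. They are 6 of the 14132 genes that the arrays measured with a probe set naming 1 gene alone, and 16 of the 52707 probe sets: 4 for CYP3A4, 3 each for ATXN7, TLCD4 and PBX3, 2 for MRAP and 1 for NANOS1. Total RNA of 20 corpora lutea from female macaques in natural menstrual cycles, untreated as far as the labels say, was hybridised to Affymetrix arrays, 1 corpus luteum per array. The 5 stages had 4 corpora lutea each and were dated in days after the midcycle LH surge. They were early (3 to 5), mid (7 to 8), mid-late (10 to 12), late (14 to 16) and very-late (18 to 19). In the series design the late stage is that of functional regression, when progesterone secretion stops, and the very-late stage, at menses, is that of structural regression, when the gland is remodelled and its cells die. The animals' ages are not given in the sources used here, and each stage was a different set of glands, so no gland was followed over time.

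The corpus luteum forms from the ovulated follicle and makes progesterone until it regresses if no pregnancy begins. Its steroid-making cells import cholesterol into mitochondria with STAR and convert pregnenolone to progesterone with the enzyme HSD3B2, under LH acting through cyclic AMP. As it regresses, steroid-making cells are removed and macrophages take up the debris. MRAP is the accessory protein that carries the ACTH receptor MC2R to the cell surface in the adrenal gland. CYP3A4 is a cytochrome P450 that hydroxylates steroids and many drugs, best known from the liver, and PBX3 is a homeodomain protein that binds DNA together with HOX and MEIS proteins. TLCD4 is a membrane protein with the TLC domain that ceramide synthases also carry. ATXN7 is a subunit of the SAGA chromatin complex that anchors its histone deubiquitinase, and NANOS1 is a zinc-finger protein that represses translation of mRNAs together with Pumilio proteins.

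The values are log2 intensities after the authors' RMA normalization, 1 per probe set and array, so a difference of 1 is a 2-fold change. Each gene is given by its brightest probe set over the 20 arrays, and its other probe sets are numbered after it in order of brightness. The level of 683 probe sets for viral genomes, with a median of 3.42 and a 95th percentile of 4.30, served as the measure of background. All 6 brightest probe sets were above 4.30 on all 16 arrays of the first 4 stages. In whole-gland RNA, fewer cells of a type and less RNA per cell cannot be told apart.

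Some arrays stood apart from the others. Very-late replicate 1 had a log2 gap of 2.70 between the 3′ and 5′ probe sets of GAPDH, against 0.831 to 1.78 on the other 19 arrays, while its gap for actin, 0.117, lay among the others. Very-late replicate 2 correlated least with the other arrays of its own stage (r = 0.973 over probe sets). The arrays also fell into 7 with 6 probe sets of the mitochondrial genome at a mean level of 7.02 to 8.93 and 13 with them at 11.5 to 12.5. All 4 mid arrays were among the 7, with replicate 4 of early, replicate 1 of mid-late and replicate 2 of very-late, so at the mid stage this split and the stage cannot be told apart. Very-late minus late differences of the 6 genes are given with and without very-late replicates 1 and 2. Those of the listed genes named here are given without them where the unlogged fold change moved by over 1.5 times.

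MRAP was at 8.47, 8.59, 8.37 and 8.81 at the early stage and at 9.08, 8.68, 8.99 and 8.54 at the mid stage. It was at 8.83, 8.47, 8.23 and 8.38 at mid-late and at 6.93, 7.74, 8.08 and 7.34 at late. At the very-late stage its 4 arrays were at 3.81, 3.37, 3.69 and 4.22. MRAP was thus steady through the first 3 stages, lower on all 4 late arrays than on any of the 12 earlier ones, and at very-late below 4.30 on all 4 arrays, which is the level of the viral probe sets. Its means were 8.56 ± 0.19, 8.82 ± 0.25, 8.48 ± 0.26, 7.52 ± 0.50 and 3.77 ± 0.35 from early to very-late (SD, n = 4 each). Very-late minus late was −3.75 on the log2 scale, a 13.4-fold lower level, and very-late minus early −4.79, a 27.6-fold lower level. Without very-late replicates 1 and 2 the difference from late was −3.57. The other probe set of MRAP stayed between 3.12 and 3.86 on all 20 arrays, at the background level. Even so it differed among the first 4 stages (limma adjusted p = 0.0399), with means of 3.68 at mid-late and 3.38 at late. Of the 6 genes, MRAP was the only one whose brightest probe set reached the background level on all 4 very-late arrays, so "lost" holds for MRAP by this measure and not for ATXN7, of which no very-late array was under 4.30.

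MC2R, the receptor that MRAP escorts, was at 3.71 ± 0.15 on the very-late arrays and 3.66 ± 0.17 on the late arrays (SD, n = 4 each), at the background level in both, with a difference of 0.04 ± 0.09 (SE, limma adjusted p = 0.839). Of 10 listed genes of melanocortin signalling, 7 were measured and 0 passed the test in very-late against late, also 0 at an unadjusted p under 0.05, where 13.8% of all probe sets passed (limma, Benjamini-Hochberg adjusted p under 0.05). The largest differences among them were those of ASIP, an antagonist of melanocortin receptors, at 0.14 ± 0.08 (adjusted p = 0.296), and POMC, the precursor of ACTH, at 0.10 ± 0.09. MRAP2, the paralogue of MRAP, was at background too and differed by −0.02 ± 0.08. A wider list of the cyclic AMP and protein kinase A pathway had 31 of 34 genes measured, of which 6 were higher, 5 lower and 20 not called, with a median of −0.06 against 0.02 for all probe sets. The regulatory subunits PRKAR1A and PRKAR2B fell by 1.32 ± 0.20 and 1.74 ± 0.29 (adjusted p = 0.000145 and 0.000387). Among the phosphodiesterases, which break cyclic nucleotides down, PDE4A rose by 1.11 ± 0.15 (adjusted p = 3.14e-05) and PDE7B fell by 1.76 ± 0.24 (adjusted p = 4.77e-05). PRKAR1A passed on 1 of its 2 probe sets and PDE4A on 1 of 5.

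**Figure D1:**
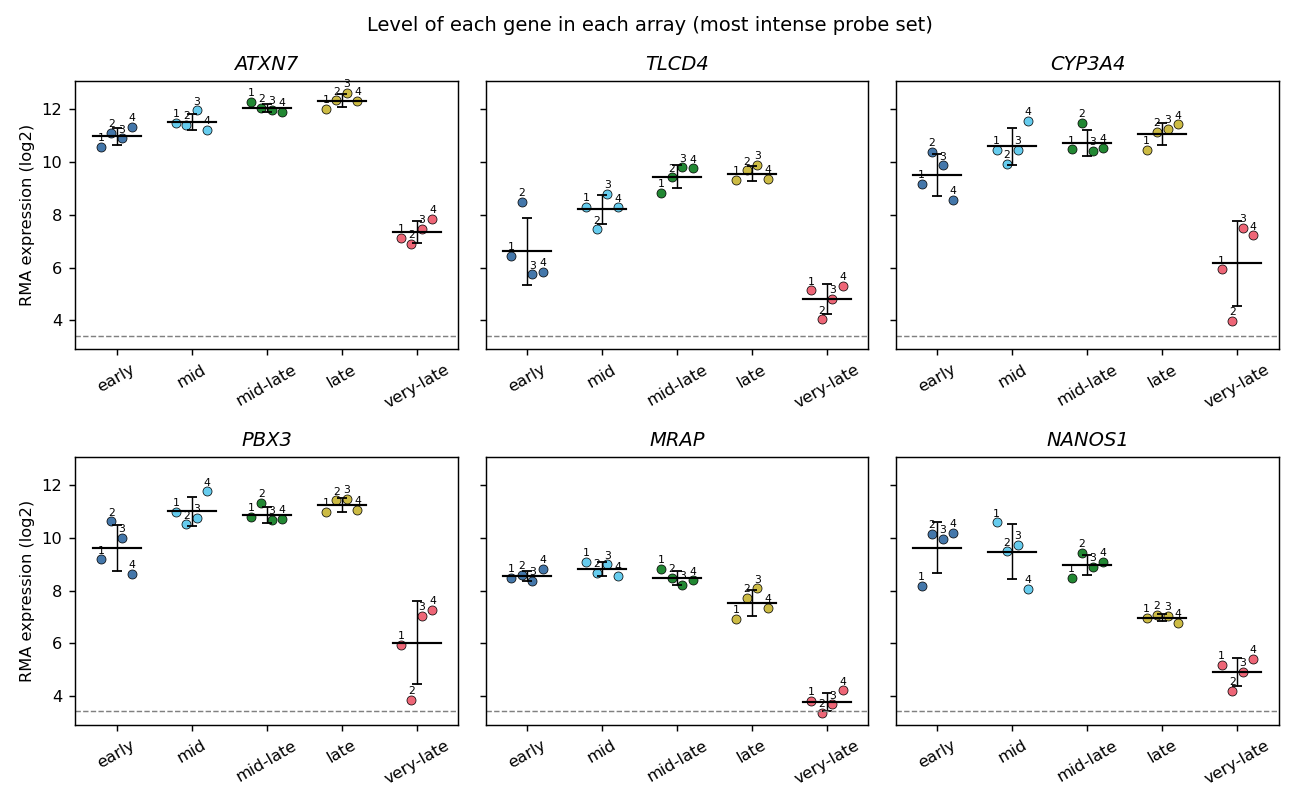
Log2 level of the brightest probe set of each of the 6 genes on the 20 arrays, by luteal stage in order of time. Points are single corpora lutea with their replicate number, and bars are stage means ± SD (n = 4). The 4 very-late arrays lie under all 16 earlier ones in each of the 6 genes, and MRAP and NANOS1 are already lower at the late stage.

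CYP3A4 was at 9.18, 10.39, 9.87 and 8.55 at the early stage and at 10.46, 9.91, 10.45 and 11.57 at the mid stage. It was at 10.48, 11.47, 10.43 and 10.53 at mid-late and at 10.46, 11.13, 11.27 and 11.42 at late. The 4 very-late arrays were at 5.93, 3.98, 7.51 and 7.22. Neighbouring stages overlapped up to late, and the early arrays were all below the mid-late and late ones, replicate 2 only just. The very-late arrays were lower still and far apart, with replicate 2 at the background level and replicates 3 and 4 well above it. The means were 9.50 ± 0.80, 10.60 ± 0.69, 10.73 ± 0.50, 11.07 ± 0.42 and 6.16 ± 1.61 from early to very-late (SD, n = 4 each). Very-late minus late was −4.91 (30.1-fold lower) and very-late minus early −3.34 (10.1-fold lower). A single array weighs on that size: without very-late replicate 2 the difference from late was −4.18, and without replicates 1 and 2 it was −3.71.

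The other 3 probe sets of CYP3A4 were lower at very-late too, with very-late minus late differences of −4.71, −4.56 and −4.04. The third was at 3.78 ± 0.18 on the very-late arrays and 8.34 ± 0.57 on the late arrays (SD, n = 4 each). The fourth was at 2.98 ± 0.05 on the very-late arrays and 7.02 ± 0.74 on the late arrays. Both were under 4.30 on all 4 very-late arrays, and the brightest probe set was on 1. The names of all 4 probe sets of CYP3A4 end in _s_at or _x_at, which marks Affymetrix probe sets that can bind several transcripts. Signal from near-identical relatives or other transcripts therefore cannot be separated from CYP3A4 itself. CYP3A5, a steroid-hydroxylating relative, fell on all 3 of its probe sets in very-late against late. The brightest was at 7.18 ± 0.67 on the very-late arrays and 11.15 ± 0.40 on the late arrays, a difference of −3.97 ± 0.30 (SE, limma adjusted p = 5.96e-08), and the other pair differed by −4.10 ± 0.28 and −2.82 ± 0.39. A further probe set, annotated to CYP3A5 and CYP3A4 together and so counted for neither, averaged 8.29 ± 0.80 on the very-late arrays and 11.92 ± 0.30 on the late arrays. CYP3A43 was at the background level throughout and differed by −0.06 ± 0.06 (adjusted p = 0.646).

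A list of CYP3A genes, their regulators and their electron-transfer partners had 9 of 12 genes measured. In very-late against late, 7.03% of all probe sets were called lower, and 20.4% of those with at least 4 arrays above 5. On the list, 0 were higher, 5 not called and 4 lower. Besides CYP3A5, these were PGRMC1, a haem-binding P450 partner, at −1.25 ± 0.23 (adjusted p = 0.000884), POR, the reductase that passes electrons to microsomal P450s, at −0.89 ± 0.21 (adjusted p = 0.00703), and CYB5A, cytochrome b5, at −0.67 ± 0.16 (adjusted p = 0.00665). Of the 4 probe sets of POR, 1 passed the test. NR1I2, the xenobiotic receptor that induces CYP3A4 in liver, was at the background level, with a difference of 0.04 ± 0.07 (adjusted p = 0.825).

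PBX3 was at 9.18, 10.62, 10.00 and 8.63 at the early stage and at 10.98, 10.50, 10.75 and 11.75 at the mid stage. It was at 10.78, 11.33, 10.67 and 10.72 at mid-late and at 10.97, 11.42, 11.48 and 11.05 at late. The very-late arrays were at 5.93, 3.85, 7.05 and 7.28. As with CYP3A4, neighbouring stages overlapped up to late, the early arrays lay below the mid-late and late ones, and the very-late arrays were all lower and widely spread. Means ran 9.61 ± 0.88, 11.00 ± 0.54, 10.88 ± 0.31, 11.23 ± 0.26 and 6.03 ± 1.57 from early to very-late (SD, n = 4 each). Its very-late minus late difference was −5.20 (36.8-fold lower) and that from early −3.58 (12.0-fold lower). With all 4 very-late arrays, the drop from late was the largest of all 14132 genes, each taken by its brightest probe set. The second probe set of ATXN7 had a larger one, at −5.87. Without very-late replicate 2 the difference of PBX3 from late was −4.48, a smaller drop than that of the brightest probe set of ATXN7 (−4.83). Without replicates 1 and 2 it was −4.07 for PBX3.

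The probe sets of PBX3 disagreed. The second, made from the same array sequence as the first, had a very-late minus late difference of −5.18. The third, made from another sequence, was at 7.33, 7.34, 6.76 and 6.88 at early, at 6.61, 6.79, 6.96 and 6.96 at mid, and at 6.79, 6.76, 6.91 and 7.11 at mid-late. It was at 6.79, 6.83, 7.00 and 7.06 at late and at 7.75, 8.12, 6.97 and 7.36 at very-late. It was therefore nearly level over the first 4 stages and a little higher at very-late, with very-late replicate 3 inside the late range and a mean of 7.55 ± 0.49 on the very-late arrays against 6.92 ± 0.13 on the late arrays, a difference of 0.63, or 0.25 without very-late replicates 1 and 2. The direction of PBX3 thus depends on the probe set, and the 2 sequences cannot both be taken as readings of 1 level. The other genes had probe sets that either fell together or were at background.

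The falling probe sets of PBX3 followed CYP3A4 closely. Likeness was measured as the root mean square difference between profiles over the 20 arrays, each centred on its own mean, with 0 for identical profiles. Of the 52706 other probe sets, the 2 closest to the brightest of CYP3A4 were the second and the first of PBX3, at 0.257 and 0.265. The next was the second probe set of CYP3A4 itself, at 0.552, while the fourth and the third of CYP3A4 ranked 15th (0.814) and 36th (0.908). Array by array, CYP3A4 minus PBX3 averaged −0.14 and ran from −0.59 to 0.46. The third probe set of PBX3 ranked 50570th in likeness to the first, at 2.38. The name of the first PBX3 probe set ends in _x_at, so it too can bind several transcripts. Which transcripts the falling pair of PBX3 probe sets bound was not tested, since their sequences were not used here, and their gene name is that of the platform annotation. Values of PBX3 below are those of the brightest probe set and carry this doubt.

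**Figure D2:**
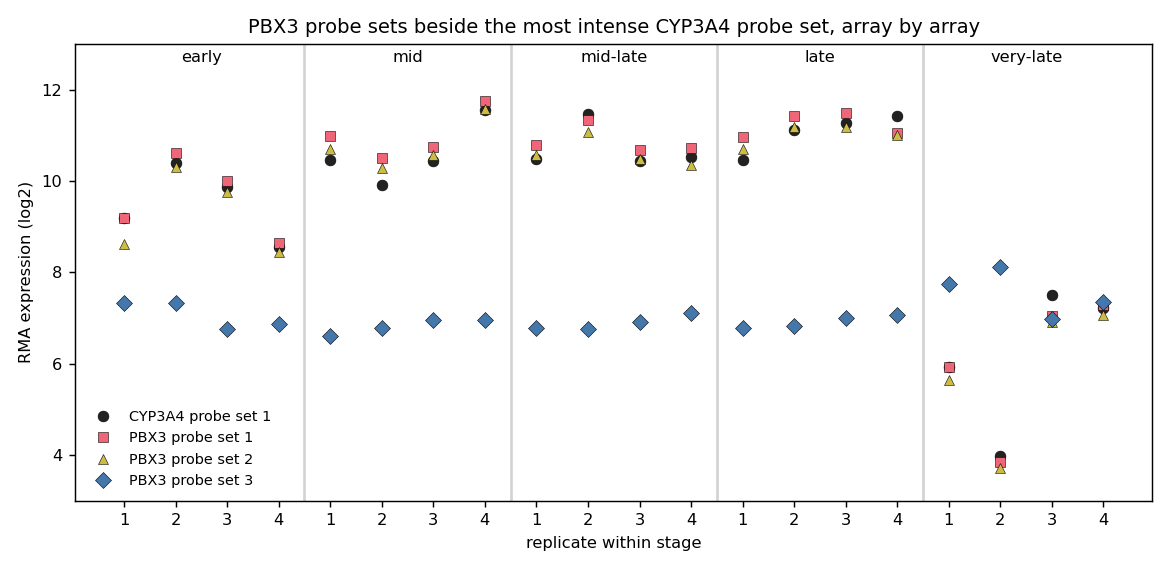
Log2 levels of the 3 probe sets of PBX3 and the brightest of CYP3A4 over the 20 arrays, in order of stage and replicate. The first and second of PBX3 and CYP3A4 move together array by array, within 0.59 for the first, while the third of PBX3 stays between 6.61 and 8.12 and is higher, not lower, at very-late.

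A list of 18 genes held the TALE class of homeodomain proteins, to which PBX3 belongs, and the PBX-binding protein PBXIP1. Of these 12 were measured, with 1 higher, 0 lower and 11 not called in very-late against late, and a median of −0.04. The one that rose was TGIF1, a repressor of the TGF-beta response, by 1.26 ± 0.17 (adjusted p = 4.6e-05). The DNA-binding partners MEIS1 and MEIS2 differed by −0.17 ± 0.19 and −0.08 ± 0.16, and the paralogue PBX2 by 0.03 ± 0.11, none of them called.

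TLCD4 was at 6.44, 8.48, 5.74 and 5.84 at the early stage and at 8.31, 7.45, 8.79 and 8.29 at the mid stage. It was at 8.84, 9.42, 9.80 and 9.76 at mid-late and at 9.32, 9.68, 9.90 and 9.36 at late. At very-late it was at 5.14, 4.04, 4.81 and 5.31. Early replicate 2 stood far above the other early arrays and inside the mid range, every mid-late and late array was above every early and mid array, and every very-late array was below every early one. The means were 6.63 ± 1.27, 8.21 ± 0.56, 9.45 ± 0.44, 9.57 ± 0.28 and 4.83 ± 0.56 from early to very-late (SD, n = 4 each). The difference of very-late from late was −4.74 (26.7-fold lower) and that from early −1.80 (3.5-fold lower), the smallest gap to early of the 6 genes. Without very-late replicates 1 and 2 the difference from late was −4.50. The second probe set had nearly the same profile, with a very-late minus late difference of −4.38, but its very-late and early arrays overlapped by 0.17. The third was at background, between 2.90 and 3.89.

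The list of proteins with a TLC domain had 10 of 15 genes measured, with 1 higher, 1 lower and 8 not called in very-late against late, and a median of −0.03. CERS6, a ceramide synthase, fell by 0.73 ± 0.09 (adjusted p = 2.48e-05), and TLCD3A rose by 0.44 ± 0.13 (adjusted p = 0.0337). TLCD1, which in mammals bears on membrane lipid composition, was at the background level and differed by −0.13 ± 0.15 (adjusted p = 0.687).

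ATXN7 was at 10.57, 11.11, 10.89 and 11.34 at the early stage and at 11.48, 11.40, 11.96 and 11.21 at the mid stage. It was at 12.27, 12.06, 11.96 and 11.89 at mid-late and at 12.00, 12.33, 12.61 and 12.32 at late. The very-late arrays were at 7.14, 6.91, 7.47 and 7.85. The mean of ATXN7 was higher at each stage up to late, with neighbouring stages overlapping and no overlap between the late and the early arrays, and the very-late arrays were far below any other. The means were 10.98 ± 0.32, 11.51 ± 0.32, 12.05 ± 0.16, 12.32 ± 0.25 and 7.34 ± 0.41 from early to very-late (SD, n = 4 each). Very-late differed from late by −4.97 (31.4-fold lower) and from early by −3.64 (12.4-fold lower), and without very-late replicates 1 and 2 the difference from late was −4.66. The name of its brightest probe set ends in _s_at. The second probe set, whose name ends in _at alone, had a very-late minus late difference of −5.87, or −5.25 without those replicates. The third stayed between 3.25 and 3.60, at background.

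Most other measured subunits of SAGA and relatives of ATXN7 were not called. Of 24 listed, 20 were measured, with 2 higher, 3 lower and 15 not called in very-late against late, and a median of 0.13. SUPT3H, a core subunit of the complex, was at 5.71 ± 0.92 on the very-late arrays and 9.21 ± 0.16 on the late arrays (SD, n = 4 each), and fell by 3.50 ± 0.35 (adjusted p = 1.94e-06). In late against early the list had 1 higher, 3 lower and 16 not called: SUPT3H rose by 1.19 ± 0.35 (adjusted p = 0.0468), and ENY2, TADA3 and TAF10 fell. SF3B3, which SAGA shares with the splicing machinery, fell by 1.28 ± 0.17 (adjusted p = 4.12e-05), and TAF10, which it shares with TFIID, fell by 0.36 ± 0.10 (adjusted p = 0.0228). SUPT20H, a structural subunit, rose by 0.80 ± 0.13 (adjusted p = 0.000294). SUPT3H passed on 3 of its 4 probe sets, but SF3B3, TAF10 and SUPT20H each on 1 of 3. Within the deubiquitinase module itself, ATXN7L3 rose by 0.35 ± 0.10 (adjusted p = 0.0174), while USP22, the enzyme, differed by 0.00 ± 0.16 (adjusted p = 0.993). The paralogue ATXN7L1, at the background level, differed by 0.13 ± 0.10 (adjusted p = 0.48).

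NANOS1 was at 8.19, 10.16, 9.95 and 10.19 at the early stage and at 10.58, 9.48, 9.74 and 8.07 at the mid stage. It was at 8.47, 9.42, 8.89 and 9.09 at mid-late and at 6.97, 7.09, 7.04 and 6.78 at late. The very-late arrays were at 5.17, 4.20, 4.91 and 5.41. The first 3 stages overlapped, with 1 low array each at early and mid, the 4 late arrays lay close together under all 12 of them, and the very-late arrays were lower again. Its means were 9.62 ± 0.96, 9.47 ± 1.04, 8.97 ± 0.40, 6.97 ± 0.14 and 4.92 ± 0.52 from early to very-late (SD, n = 4 each). The very-late mean differed from the late mean by −2.05 (4.1-fold lower), the smallest of the 6, and from the early mean by −4.70 (25.9-fold lower). Without very-late replicates 1 and 2 the difference from late was −1.81. It has a single probe set, so there is no other reading of it here.

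A list of 20 genes held NANOS and Pumilio proteins, subunits of the CCR4-NOT deadenylase, which shortens the tails of mRNAs, and proteins that bind these, such as TOB1, TOB2, DDX20 and SNAPIN. Of these 15 were measured, with 1 higher, 0 lower and 14 not called in very-late against late, and a median of 0.09. CNOT1, the scaffold of the deadenylase, rose by 0.49 ± 0.09 (adjusted p = 0.00117), on 1 of its 3 probe sets. NANOS3 differed by 0.11 ± 0.09 and PUM2 by 0.11 ± 0.13, neither called.

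**Figure D3:**
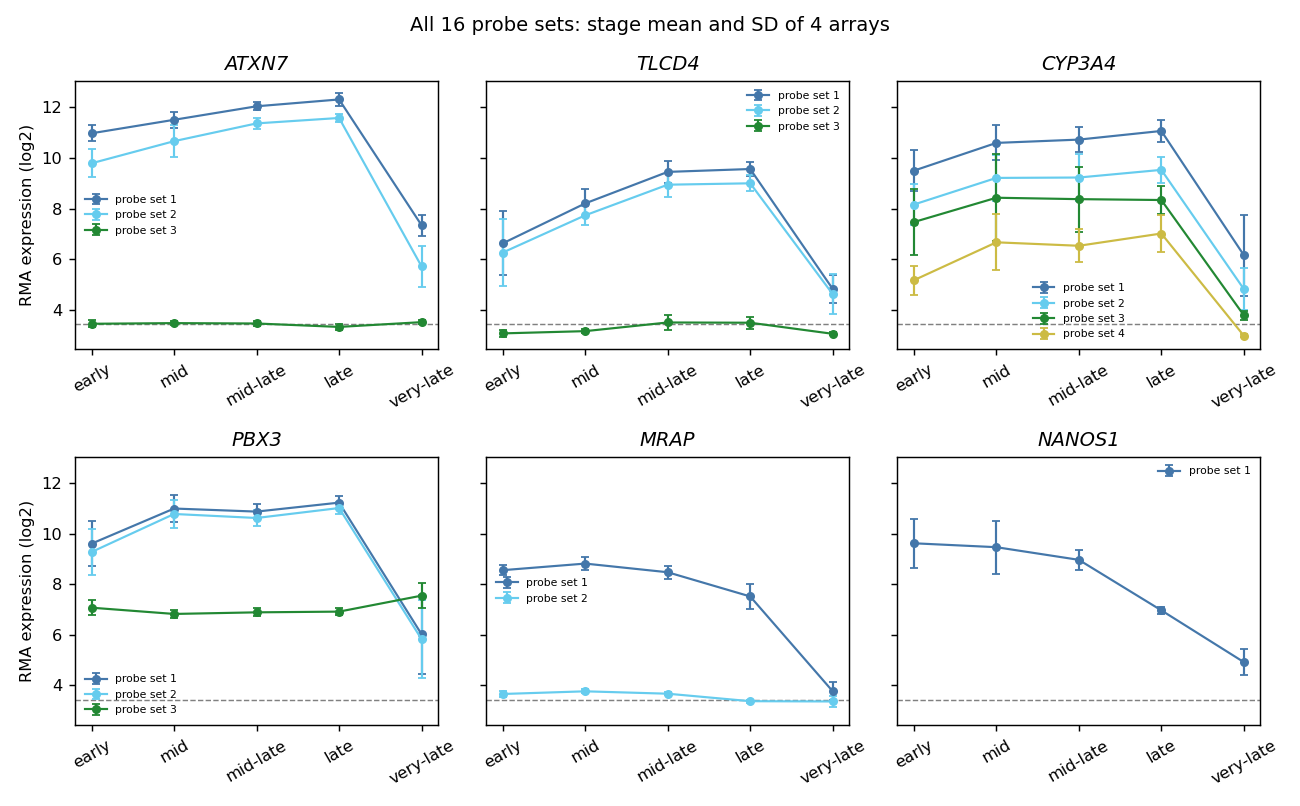
Log2 stage means ± SD (n = 4) of all 16 probe sets of the 6 genes, by stage in order of time. Of the 16, 12 drop at very-late, 3 lie at the background level near 3.4 throughout, and the third of PBX3 is 0.63 higher at very-late than at late.

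The rule for choosing the genes names no baseline, and the fall was large against late in some and against early in others. The 14132 genes were ranked by their brightest probe sets. By very-late minus late over all arrays, PBX3 ranked 1, ATXN7 3, CYP3A4 4, TLCD4 6, MRAP 20 and NANOS1 130. Ranked by very-late minus early, MRAP was 5, NANOS1 6, ATXN7 26, PBX3 28, CYP3A4 38 and TLCD4 238. Without very-late replicates 1 and 2 the differences from early were −3.32 for ATXN7, −1.56 for TLCD4, −2.14 for CYP3A4, −2.45 for PBX3, −4.61 for MRAP and −4.46 for NANOS1. The 6 therefore include genes with their highest mean at late and genes that were already lower there, though still above 4.30. In all 6, the 4 very-late arrays were below the 16 others, as in 3.37% of all probe sets, and the choice of the genes fixed that count. The medians of the 20 arrays ran from 3.88 to 3.98.

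The course before very-late was tested with limma across all 20 arrays and 52707 probe sets, with Benjamini-Hochberg adjustment and an adjusted p under 0.05. The late and early arrays also enter the very-late contrasts used for the choice, so the tests below that involve them are not wholly independent of it. Since the rule names no baseline, mid and mid-late arrays may have entered the choice too, and every comparison shares its estimate of the spread with the very-late arrays. Of the 6 genes, 4 differed among the first 4 stages, where 5.69% of probe sets did: ATXN7 (adjusted p = 0.0022), TLCD4 (0.0022), NANOS1 (0.00471) and MRAP (0.00535). The adjusted p was 0.372 for CYP3A4 and 0.255 for PBX3. Shares of all probe sets take in dim ones, while the brightest probe sets of all 6 genes had at least 4 arrays above 5. Of the 17586 probe sets with such levels, 3189 differed among the first 4 stages when tested alone.

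In late against early, 7.58% of probe sets were called, 3.61% higher and 3.97% lower, and the 6 genes went both ways. Among the 17586 probe sets with at least 4 arrays above 5, 10.5% were higher and 11.7% lower. ATXN7 rose by 1.34 ± 0.20 (SE, limma adjusted p = 0.000535) and TLCD4 by 2.94 ± 0.46 (adjusted p = 0.000806), and all 4 late arrays were above all 4 early arrays in each. MRAP fell by 1.04 ± 0.22 (adjusted p = 0.0058) and NANOS1 by 2.65 ± 0.46 (adjusted p = 0.00158), with all 4 late arrays below all 4 early ones. How many of all probe sets had late and early arrays apart in this way was not counted. CYP3A4 at 1.57 ± 0.59 (adjusted p = 0.131) and PBX3 at 1.62 ± 0.56 (adjusted p = 0.0925) did not pass, and 1 array decided this: without very-late replicate 2, which enters through the common spread, both passed at the same differences (adjusted p = 0.0251 and 0.00966). Of the other probe sets of CYP3A4 the fourth passed with all arrays, at 1.85 ± 0.46 (adjusted p = 0.0193), while the second at 1.37 ± 0.53 (adjusted p = 0.147) and the third at 0.87 ± 0.75 (adjusted p = 0.625) did not. The second probe set gave 1.79 ± 0.35 for ATXN7 (adjusted p = 0.0038) and 2.74 ± 0.49 for TLCD4 (adjusted p = 0.00198). With a term for the mitochondrial split of the arrays, the differences were 1.35 for ATXN7, 2.70 for TLCD4, −1.02 for MRAP and −2.72 for NANOS1, with adjusted p of 0.000904, 0.000849, 0.0108 and 0.00212.

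The rise of ATXN7 and TLCD4 was already called at mid-late, against early, where 3.73% of probe sets were called, 1.62% higher and 2.1% lower. Among probe sets with at least 4 arrays above 5, 5.61% were higher and 7.59% lower. ATXN7 rose by 1.07 ± 0.20 (adjusted p = 0.00665) and TLCD4 by 2.83 ± 0.46 (adjusted p = 0.00309). CYP3A4 differed there by 1.23 ± 0.59 and PBX3 by 1.27 ± 0.56, MRAP by −0.08 ± 0.22 and NANOS1 by −0.65 ± 0.46, none of them called. In mid against early, 0 of the 6 passed, where 0.362% of probe sets did, and 3 had an unadjusted p under 0.05. The largest was TLCD4, at 1.58 ± 0.46 (adjusted p = 0.157), which turned on early replicate 2: without that array it rose by 2.20 (adjusted p = 0.00722). With the mitochondrial term the mid minus early differences were 2.31 for TLCD4, 2.22 for CYP3A4 and 2.47 for PBX3, none of them called.

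Between consecutive later stages almost nothing passed on these arrays. In mid-late against mid, 0 of the 6 were called, where 0.0114% of probe sets were, and 2 had an unadjusted p under 0.05: TLCD4 differed by 1.25 ± 0.46 and ATXN7 by 0.53 ± 0.20 (adjusted p = 0.668 and 0.674). With the term for the mitochondrial split, which sets all mid arrays apart, the difference of TLCD4 was 0.52 and that of ATXN7 0.58. In late against mid-late, again 0 of 6 and 0.0114% of probe sets were called (0.00379% higher, 0.00759% lower), and 2 had an unadjusted p under 0.05. NANOS1 differed by −2.00 ± 0.46 (unadjusted p = 0.00038, adjusted p = 0.186) and MRAP by −0.96 ± 0.22 (unadjusted p = 0.00033, adjusted p = 0.174). Both had all 4 late arrays below all 12 arrays of the 3 earlier stages, as 0.816% of probe sets had. The highest late array of MRAP was 8.08, against 8.23 for its lowest earlier array, and for NANOS1 these were 7.09 and 8.07. The other 4 genes had late means above their mid-late means: CYP3A4 differed by 0.34 ± 0.59, PBX3 by 0.35 ± 0.56, ATXN7 by 0.27 ± 0.20 and TLCD4 by 0.11 ± 0.46, none of them called.

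**Figure D4:**
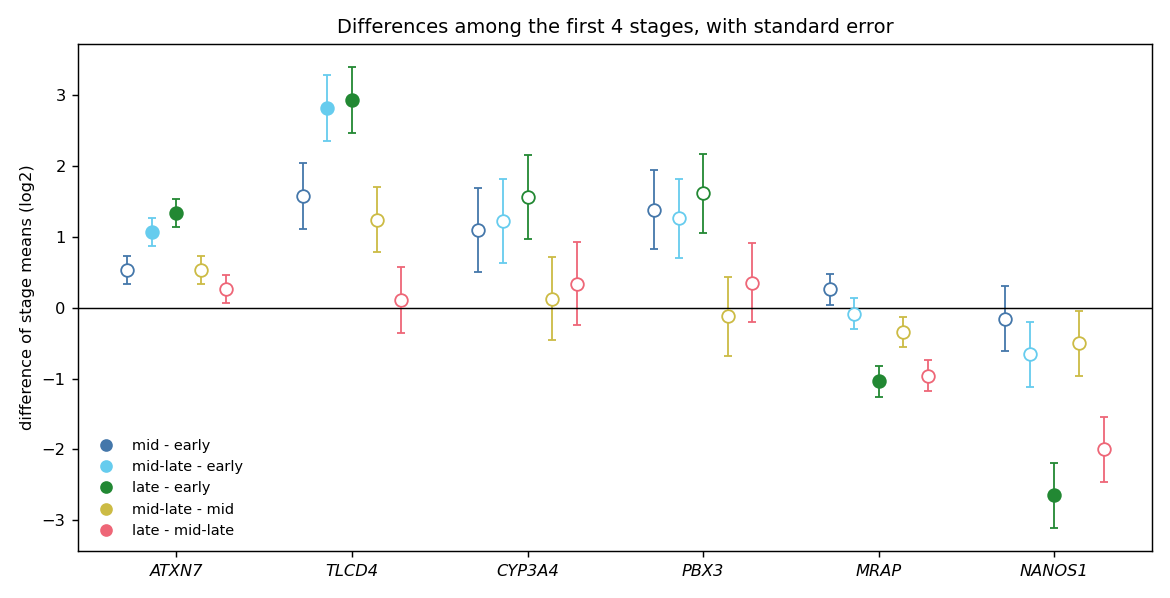
Log2 differences between the first 4 stages for the brightest probe set of each of the 6 genes, with SE from limma. Filled points passed the test (adjusted p under 0.05 over 52707 probe sets) and open points did not. In late against early ATXN7 and TLCD4 lie above 0 and MRAP and NANOS1 below it, and no point is filled in mid against early or between consecutive stages.

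At the very-late stage the same arrays were low or high in most of the 6 genes. Replicate 2 was the lowest of the 4 in 6 of 6 and replicate 4 the highest in 5 of 6, with replicate 3 highest for CYP3A4. The share of all probe sets with this order was not counted. The brightest probe sets of CYP3A4 and PBX3 had nearly the same profile, so these are not 6 separate cases. The spread was widest for CYP3A4 and PBX3, and 5 of 6 genes had a wider range at very-late than at late. Some other luteal genes also had replicate 2 lowest and replicate 4 highest. In replicates 1 to 4, STAR was at 8.11, 8.05, 9.88 and 10.55, and INHA, the inhibin alpha subunit, at 8.83, 5.82, 9.16 and 9.50, while HSD3B2 was at 5.67, 5.76, 6.53 and 6.23, with replicate 1 lowest and replicate 3 highest. The mean of the 9 measured genes of steroid synthesis and luteal function was 7.26, 6.39, 7.64 and 7.96 in replicates 1 to 4. CD68, a macrophage marker, was at 10.77, 11.49, 10.49 and 10.84, with replicate 2 the highest, and the mean of 13 macrophage markers at 8.90, 9.49, 9.19 and 9.22. Replicate 2 is also the very-late array with low mitochondrial probe sets, and the part of cell makeup, RNA quality or the progress of regression in these shared orders was not tested.

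Genes of steroid synthesis and markers of other cell types moved at the same stage. Of 14 listed genes of steroid synthesis and luteal function, 9 were measured, with 0 higher, 7 lower and 2 not called in very-late against late, and a median of −2.87 against 0.02 for all probe sets. STAR fell by 4.22 ± 0.38 (adjusted p = 4.33e-07), INHA by 3.63 ± 0.50 (adjusted p = 5.43e-05), HSD3B2 by 3.30 ± 0.37 (adjusted p = 6.79e-06) and CYP19A1, the enzyme that makes oestrogens, by 5.02 ± 0.47 (adjusted p = 7.04e-07). NR5A2, a nuclear receptor of ovarian steroid-making cells, fell by 2.73 ± 0.43 (adjusted p = 0.000228), while its relative NR5A1 differed by −0.22 ± 0.15 (adjusted p = 0.409). The mean level of the list was 6.39 to 7.96 on the very-late arrays and 9.53 to 9.99 on the late arrays, so the groups did not overlap. At late against early the same list had 1 higher and 2 lower, with a median of −0.02. STAR, which marks steroid-making luteal cells, was near the top of the scale in the first 4 stages, with means from 13.2 to 13.4, so the labelled tissue was met by its marker.

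Of 15 listed macrophage markers 13 were measured. In very-late against late, 6.75% of probe sets were called higher, and 14.9% of those with at least 4 arrays above 5. Of the 13 markers, 6 were higher, 0 lower and 7 not called. Their mean level was 8.90 to 9.49 on the very-late arrays and 7.76 to 8.34 on the late arrays. TYROBP rose by 2.76 ± 0.31, CD68 by 2.70 ± 0.27 (on 1 of 2 probe sets) and CTSS, a lysosomal protease, by 2.47 ± 0.37. The markers did not all rise: C1QA, C1QB and C1QC differed by −1.22, −0.01 and −0.92 and ITGAM by 0.05, none of them called. Endothelial markers had 9 of 10 measured, with 0 higher and 2 lower, the surface protein EMCN by −1.10 ± 0.23 and the VEGF receptor KDR by −0.94 ± 0.25, and mean levels of 7.38 to 8.53 on the very-late arrays and 8.20 to 8.37 on the late arrays. Fibroblast markers had 6 of 7 measured and 3 lower, the collagen genes COL1A1 and COL1A2 and the surface protein THY1, with mean levels of 8.43 to 9.10 on the very-late arrays and 9.38 to 9.70 on the late arrays. Smooth muscle markers had 4 of 7 measured and 2 lower, TAGLN (−0.90 ± 0.29) and CSPG4 (−0.46 ± 0.11), and mean levels of 7.32 to 7.76 on the very-late arrays and 7.58 to 8.09 on the late arrays. T and NK cell markers had 5 of 9 measured, with CD8A (0.60 ± 0.16) and NKG7 (0.38 ± 0.11) higher and 1 lower, which was GZMB, a granule protease of killer cells (−2.26 ± 0.37). Their mean levels were 6.17 to 6.48 on the very-late arrays and 6.27 to 6.45 on the late arrays. Adipocyte markers, for fat around the gland, had 4 of 7 measured and 1 higher, the complement protease CFD, by 1.98 ± 0.34, with mean levels of 5.62 to 6.44 on the very-late arrays and 4.99 to 5.41 on the late arrays. Red cell markers had 3 of 7 measured and 0 called, also 0 at an unadjusted p under 0.05 (HBM at 0.07 ± 0.08 and ALAS2 at 0.01 ± 0.12), with mean levels of 4.98 to 5.48 on the very-late arrays and 5.16 to 5.32 on the late arrays. The part of these cell types in the falls of the 6 genes was not tested.

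Without very-late replicates 1 and 2, 38 listed genes were called in very-late against late, against 48 with all arrays, with 12 lost and 2 new. ATXN7L3, TLCD3A, POR, KDR, CSPG4, CD8A and NKG7 were among those lost. The new ones were TEK, an endothelial marker, and CD4, a T cell marker, both higher. The steroid list still had 7 lower, with a median of −2.28, and the macrophage list had 5 higher. The endothelial list had 1 higher and 1 lower, and its median went from −0.37 with all arrays to 0.10. Among the listed genes named here, the unlogged fold change moved by over 1.5 times for SUPT3H, STAR, INHA and NR5A2. Their log2 differences became −2.85, −3.15, −2.63 and −1.81, all of them still called. It also moved by that much for C1QA (−0.39), C1QB (0.69) and C1QC (−0.13), which were not called with or without those arrays.

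In late against early, MRAP and NANOS1 fell and ATXN7 and TLCD4 rose. In that comparison 3 of the 13 macrophage markers and 3 of the 9 endothelial markers were higher and 0 of either lower. Of all probe sets, 3.61% were called higher and 3.97% lower. Among those with at least 4 arrays above 5, 10.5% were higher and 11.7% lower. The part of these cell types in the late against early differences of those genes was not tested.

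**Figure D5:**
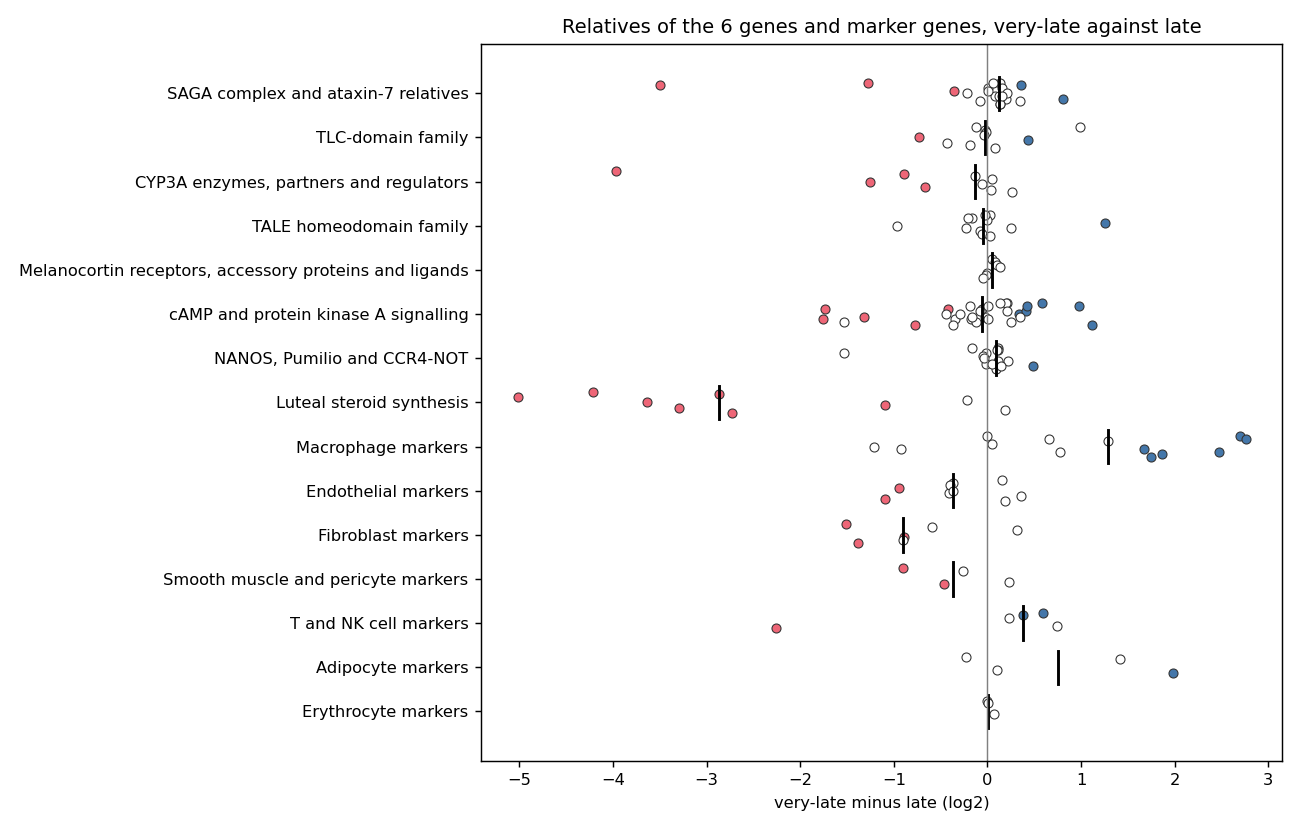
Log2 difference of very-late minus late for the measured genes of the 15 lists, 7 of relatives and partners of the 6 genes and 8 of luteal and other cell markers. Filled points passed the test, red lower and blue higher, open points did not, and black bars are list medians. The steroid synthesis list has the lowest median, −2.87, the macrophage list the highest, 1.29, and the lists of relatives lie near 0.

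For each of the 6 genes, the 3 genes with the most like profiles over the 20 arrays were taken from 2007 other genes whose stage means spanned at least 1 log2 unit, leaving out the 6 themselves. The measure was again the root mean square difference of centred profiles, and all of these genes share the drop at very-late that dominates it. Closest to MRAP was CYP3A5 at 0.262, then DCLRE1C, a DNA repair nuclease, at 0.412 and the secreted signal WNT5A at 0.444, against 1.90 for the spread of MRAP about its own mean. CYP3A4 was left out of this search, and its brightest probe set differed from that of MRAP by 1.14 on the same measure. Closest to ATXN7 were PSME3, a proteasome activator (0.514), STAR (0.553) and TM7SF2 (0.608), an enzyme of cholesterol synthesis. Apart from each other, at 0.265, INHA was nearest to both CYP3A4 (0.702) and PBX3 (0.716), followed by RBM12B (0.717) and CLIC5 (0.768) for CYP3A4 and by CYP19A1 (0.784) and STAR (0.785) for PBX3. The nearest were CLIC5 (0.808), SERPIND1 (0.817) and IL11RA (0.820) for TLCD4 and DCLRE1C (0.680), NFATC4 (0.762) and CLDN3 (0.765) for NANOS1.

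The genes on either side of the 6 were taken from the RefSeq annotation of assembly T2T-MMU8v2.0, after the values of the 6 had been seen. Of 12 such neighbours 10 were measured, with 2 lower, 0 higher and 8 not called in very-late against late, where 13.8% of all probe sets were called and 7.03% were lower. Among probe sets with at least 4 arrays above 5, 20.4% were lower. ALG14, a neighbour of TLCD4 that acts in protein glycosylation, fell by 1.58 ± 0.27 (adjusted p = 0.000495), and THOC7, a neighbour of ATXN7 that acts in mRNA export, fell by 0.43 ± 0.13 (adjusted p = 0.0411). On their other sides, RWDD3 next to TLCD4 differed by −0.22 ± 0.09 and PSMD6 next to ATXN7 by 0.06 ± 0.14. The neighbours of MRAP, URB1 and MIS18A, differed by 0.03 ± 0.09 and −0.19 ± 0.15, and those of NANOS1, CACUL1 and EIF3A, by −0.55 ± 0.22 and 0.17 ± 0.12, none called. CYP3A43, beside CYP3A4, and MAPKAP1, beside PBX3, were not called either.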

How the data were processed

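RNA was extracted with Trizol and RNeasy columns, amplified and biotin-labelled, per the labels' protocols. The deposited log2 values are the authors' RMA output, per the submitters' processing notes, whose version and chip definition are not given in the sources used here. The values ran from 2.48 to 14.28 and were used as they stand. RMA scales arrays together, so a change shared by most genes would not show.

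The arrays hold 52865 probe sets. Without the 158 array controls, 52707 entered the tests, dim ones included. Symbols came from the platform annotation: 24956 probe sets had 1 symbol, 361 several and 27390 none. Of the 16 probe sets of the 6 genes, 13 had at least 4 arrays above 5. Stage means were fitted to all 20 arrays with limma 3.58.1 in R 4.3.3 (lmFit, eBayes with a constant prior), and p-values were Benjamini-Hochberg adjusted over the 52707. The fits were checked on simulated data.

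The genes and the 15 lists (209 genes, 157 measured) were chosen with earlier results of these data known. The text names, from each list, up to 4 called genes with the largest change (up to 3 for cell markers, and 2 where none passed). It also names direct relatives of the 6 genes and the 3 nearest profiles. ENY2, TADA3, C1QA, C1QB, C1QC, ITGAM, TEK, CD4 and the neighbours were named after their values were seen. TLCD2, CERS2, CYP3A7, LHCGR and CYP11A1 have no value here. The series design calls the 20 corpora lutea biological replicates. The number of arrays limits the precision. Alternatives were a filter on dim probe sets, other scalings, priors and weights, a replicate block, a term for the mitochondrial split, averaging all probe sets of a gene, and fits without single or several arrays.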

Additional observations from a re-analysis of the deposited data

Results flagged for a closer look

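In 3 of the 30 groups of 4 arrays (6 genes in 5 stages), 1 array lay far from the other 3 by Dixon's test, which chance alone does in about 1 in 20 groups. CYP3A4 was at 11.469 on mid-late replicate 2, against 10.434 to 10.535 on the others, with a gap of 0.903 of the whole range. PBX3 was at 11.329 on the same array, against 10.671 to 10.778, with a gap of 0.837 of the range. NANOS1 was at 8.189 on early replicate 1, against 9.948 to 10.193 on the other early arrays, with a gap of 0.877 of the range.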

How the results depend on the processing

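Differences and counts of calls, but not ranks or profile likeness, were recomputed in 10 other settings and with each of the 20 arrays left out. No called difference of the 6 genes changed sign. Of their 30 differences among the first 4 stages, 7 changed sign in some setting, none of them called, such as NANOS1 in mid against early (−0.63 to 0.31) and PBX3 in mid-late against mid (−1.20 to 0.13). The 4 genes called in late against early (ATXN7, TLCD4, MRAP, NANOS1) and the pair called in mid-late against early passed in all 30. Leaving out single arrays gave 4 to 6 genes called in late against early, 4 to 5 among the first 4 stages, and 0 to 1 in mid against early. In late against early CYP3A4 also passed with array weights (adjusted p = 0.0434) and in the fits without all very-late arrays (0.018) or without very-late replicates 1 and 2 (0.0139). There PBX3 passed without dim probe sets (adjusted p = 0.0417), with array weights (0.0296), without all very-late arrays (0.00728), without replicates 1 and 2 (0.00528), and, at a lower difference of 1.07, as the mean of its probe sets (0.0465). PBX3 also passed in mid-late against early without all very-late arrays (0.0445) or without replicates 1 and 2 (0.0366). With array weights, 1 gene was called in late against mid-late, NANOS1 (−2.02, adjusted p = 0.0366).

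The median very-late minus late difference of the 6 genes was −4.82, with −5.02 to −4.33 as single arrays were left out, −3.89 without very-late replicates 1 and 2, and −3.22 as the mean of each gene's probe sets, which takes in dim ones and the third of PBX3.

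Counts of called probe sets moved more. In mid against early (191) they were 369 without dim probe sets, 534 with array weights, 19 with the mitochondrial term, 593 without all very-late arrays, 614 without very-late replicates 1 and 2, and 30 to 433 without single arrays. In mid-late against early (1964) they were 3758 with array weights, 3197 without all very-late arrays, 3231 without replicates 1 and 2, and 806 to 2769 without single arrays. Late against early (3994) gave 2588 to 4933. In mid-late against mid (6) they were 26 with array weights, 1 with the mitochondrial term and 1 to 21 without single arrays. In late against mid-late (6) they were 21 without dim probe sets, 11 with cyclic loess, 11 with a trended and robust prior, 185 with array weights, 36 without all very-late arrays, 53 without replicates 1 and 2, and 0 to 83 without single arrays. In very-late against late (7262) they were 4704 without replicates 1 and 2 and 5526 to 7457 without single arrays. The listed genes called, 48 in very-late against late and 24 in late against early, ranged from 42 to 49 and from 15 to 31 without single arrays, with 15 when early replicate 4 was left out. The cause of these shifts was not tested, beyond the fewer probe sets or arrays that some settings use.

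Replicate numbers did not pair the arrays: the deviations of same-numbered arrays correlated at −0.208 to 0.214, with 6 of 40 pairs over 0.1, and 3 of 20 arrays correlated best with their own number. With the replicate block the calls were 81 in mid against early and 3 in late against mid-late, and no call of the 6 genes changed. Background signal limits the third probe sets of ATXN7 and TLCD4 and the second of MRAP, which show no level of these genes, and bounds how low MRAP fell.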
